A study of Mus musculus with 20 samples.

Results

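The genes of MHC class II antigen presentation were followed through cells sorted from 2 mouse mammary tumours. The 9 members were taken by name, as genes of this pathway, out of 52783 genes in the count table, with no threshold on a measured value. They are the classical chains H2-Aa, H2-Ab1 and H2-Eb1, the invariant chain Cd74, the peptide editors H2-DMa and H2-DMb1, their inhibitors H2-Oa and H2-Ob, and the transactivator Ciita. To compare immune cells of a metastatic and a non-metastatic tumour, the study injected 1000000 cells of the line 66cl4 or of the line 67NR orthotopically, into the mammary fat pad, with female BALB/cJ animals as hosts. Both lines belong to the 4T1 breast cancer model, and each tumour type here is therefore the product of 1 cell line in an immunocompetent host. The mice were 8 to 12 weeks old at purchase and tumours were taken 21 to 26 days after injection. No other treatment or allele was given to any group. Tumours were dissociated and sorted on the protein CD45, which marks leukocytes. The 4 groups are CD45+ and CD45- cells of 66cl4 tumours and CD45+ and CD45- cells of 67NR tumours, with 5 animals per tumour and 1 library per gate and animal, 20 libraries in all. The CD45- gate takes tumour cells together with every other cell that lacks CD45.

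Libraries held 12960000 to 28080314 estimated counts. Ptprc, the gene of CD45, had 15890 to 28450 normalised counts in the CD45+ libraries and 10.6 to 473 in the CD45- libraries, where a normalised count is the estimated count divided by the size factor of the library. The cell type field and the title name opposite gates in both libraries of 66cl4 animals 5 and 6, and Ptprc followed the title. The CD45+ libraries of 66cl4 animals 4, 6 and 7 stood apart in B cell genes: the summed level of 7 B cell markers was 20265, 11879 and 7870 normalised counts in them and 241 and 171 in animals 3 and 5. In 67NR CD45+ cells the same sum was 381 to 903 in 4 animals and 3708 in animal 6.

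Class II molecules show peptides from engulfed protein to CD4 T cells. An alpha and a beta chain pair in the endoplasmic reticulum on the invariant chain, travel to the endosome, and there exchange a fragment of the invariant chain for a peptide with the help of H2-DM, which H2-O holds back. Ciita does not bind DNA itself but is recruited by a protein complex that sits on paired boxes upstream of these genes, the X box and the Y box. Dendritic cells, macrophages and B cells carry class II, many other cells can be induced to do so by interferon gamma, and H2-O is best known from B cells and some dendritic cells.

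The paired boxes are shown because they are the sequence feature that joins members whose patterns over the libraries differ below. RefSeq promoter windows on GRCm38.p6, 250 bases before to 50 after the start site, were at hand for 6 of the 9 members. H2-Ab1 and Ciita were not matched, and no sequence is given for Cd74. The letters GNAAC, followed by ATTGG with 30 to 33 bases from start to start on the strand of the gene, were found in 5 of the 6 members. Each line runs 5′ to 3′ on the strand of the gene, with both matches in capitals.
H2-Aa: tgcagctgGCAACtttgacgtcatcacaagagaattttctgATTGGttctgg
H2-Eb1: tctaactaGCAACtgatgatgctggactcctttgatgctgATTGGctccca
H2-DMb1: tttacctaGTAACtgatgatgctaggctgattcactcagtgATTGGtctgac
H2-Oa: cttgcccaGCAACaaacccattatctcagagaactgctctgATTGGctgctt
H2-Ob: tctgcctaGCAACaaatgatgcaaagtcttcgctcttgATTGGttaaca
The H2-Aa stretch is chr17:34287861-34287912 on the minus strand, and its first box begins 81 bases before the start site. The H2-Eb1 stretch is chr17:34305768-34305818 on the plus strand, and its first box begins 91 bases before the start site. The H2-DMb1 stretch is chr17:34153089-34153140 on the plus strand, and its first box begins 94 bases before the start site. The H2-Oa stretch is chr17:34092295-34092346 on the plus strand, and its first box begins 76 bases before the start site. The H2-Ob stretch is chr17:34238810-34238858 on the plus strand, and its first box begins 87 bases before the start site. Neither of the windows of H2-DMa held the pair. Of 32851 promoter windows of all genes, 0.317% held it on the strand of the gene and 0.588% on either strand, whereas ATTGG alone stood in 33.8% and GNAAC alone in 79.6% on either strand. Letters and spacing were chosen after these windows had been seen, so the match is a description only.

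Every member was higher in the CD45+ than in the CD45- cells of its tumour. For 7 members the mean fell in the order 67NR CD45+, 66cl4 CD45+, 67NR CD45-, 66cl4 CD45-. Within this order the CD45+ groups overlapped for Cd74, H2-DMa and Ciita, and the gates did not overlap for any member in either tumour. The share of all genes without overlap between the gates was not counted, so this does not set the members apart. By another measure, edgeR adjusted p under 0.05, 5442 of 14916 genes were higher in CD45+ cells in 66cl4 tumours. In 67NR tumours 4915 of 15063 were. H2-Oa and H2-Ob departed from the order, with the highest mean in 66cl4 CD45+ cells and with CD45+ groups that overlapped. On the length-corrected scale of TPM, in which a count is divided by the length of the transcripts of the gene and all genes of a library are brought to the same sum, Cd74 was the most abundant member in both CD45+ groups, with 3127 ± 861 TPM in 67NR and 1756 ± 578 in 66cl4 cells (SD, n = 5). H2-Aa followed with 1393 ± 202 and 711 ± 190 TPM (SD, n = 5). The transactivator Ciita stood at 14.1 ± 2.25 and 11.1 ± 6.32 TPM, and H2-Oa was the lowest member with 4.2 ± 1.86 and 8.76 ± 8.19 TPM (SD, n = 5). Together the 9 members took 0.577% ± 0.115 of all counts of a 67NR CD45+ library and 0.304% ± 0.0898 of a 66cl4 CD45+ library (SD, n = 5). In the CD45- libraries they took 0.00949% ± 0.00929 and 0.00194% ± 0.000852 (SD, n = 5).

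**Figure D1:**
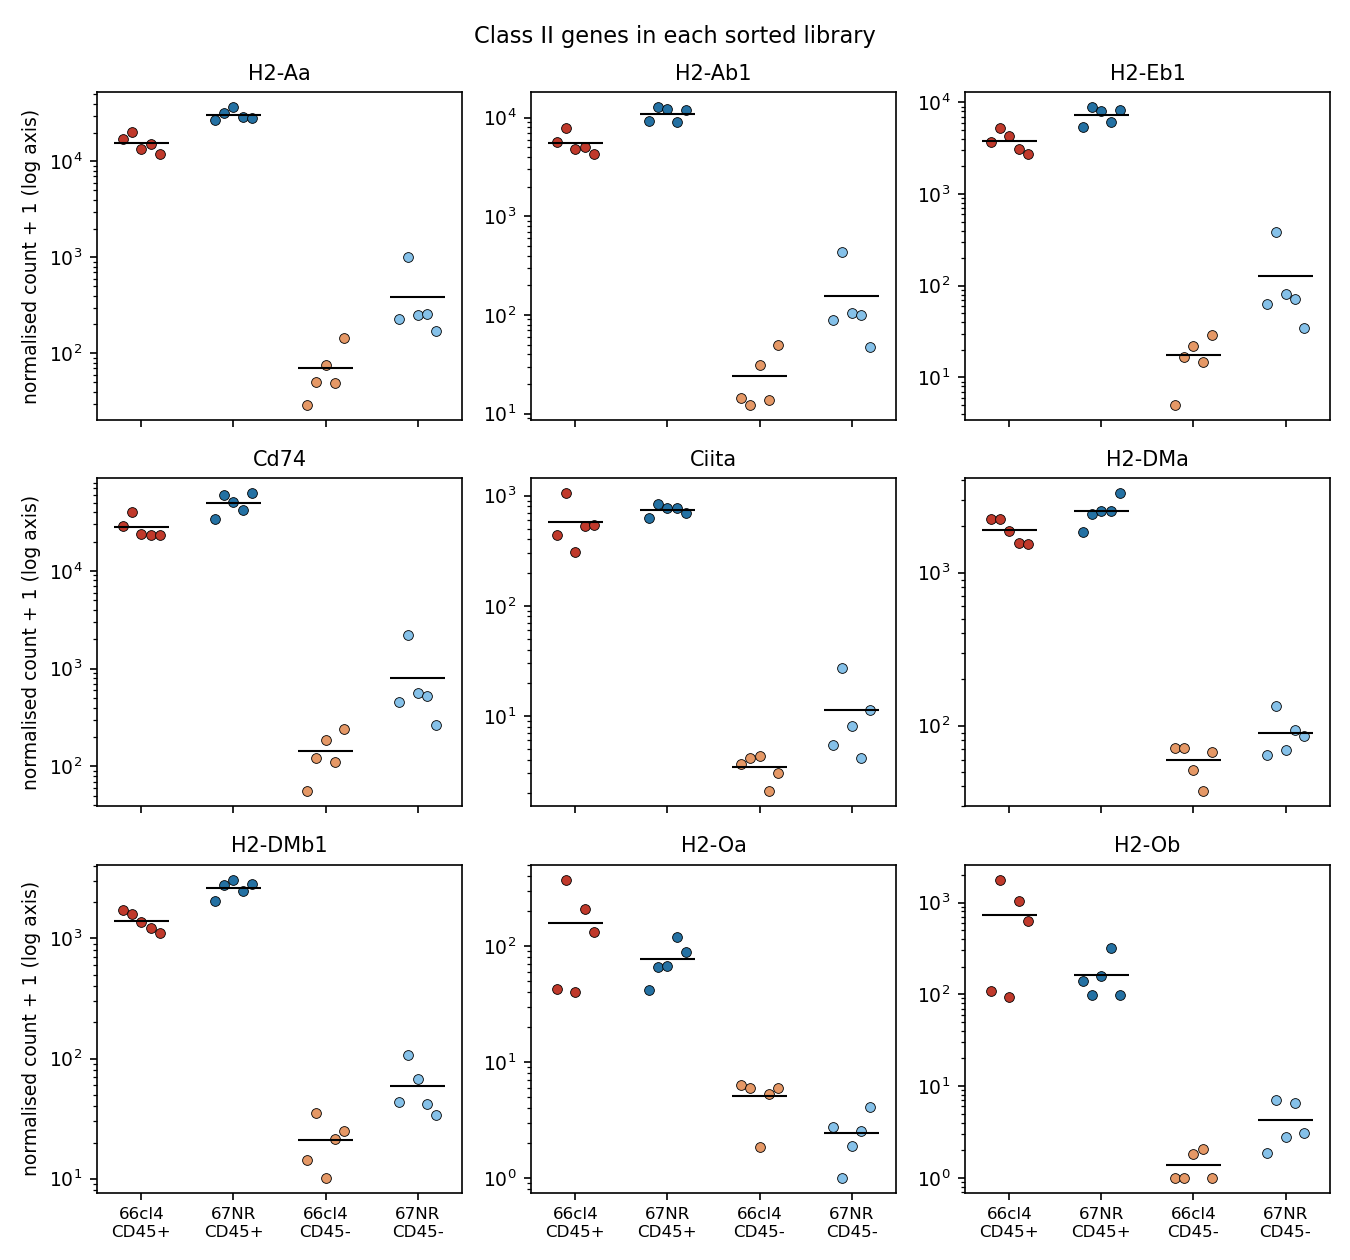
Normalised counts plus 1 of each of the 9 members on a log axis in the 4 groups; a point is 1 library, in the order of animal numbers, and the bar is the mean of 5. The CD45+ groups do not overlap for H2-Aa, H2-Ab1, H2-Eb1 and H2-DMb1, whereas H2-Oa and H2-Ob split the 66cl4 CD45+ libraries into 2 low and 3 high ones.

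In CD45+ cells the classical chains were lower in 66cl4 than in 67NR tumours, at about equal proportion for all 3 chains. H2-Aa, the alpha chain of the A molecule, had 17056, 20361, 13355, 15165 and 12076 normalised counts in 66cl4 animals 3, 4, 5, 6 and 7. In 67NR animals 1, 4, 5, 6 and 7 it had 27322, 31891, 37069, 28823 and 28564. The groups did not overlap, and the fitted log2 fold change of 66cl4 over 67NR was -0.96 (SE 0.166, edgeR adjusted p = 0.00186). H2-Ab1, the beta chain of the same molecule, had 5698, 7813, 4862, 5074 and 4261 in 66cl4 and 9206, 12855, 12175, 9011 and 11822 in 67NR cells. Its groups did not overlap either, with a log2 fold change of -0.97 (SE 0.178, edgeR adjusted p = 0.00268). H2-Eb1, the beta chain of the E molecule, had 3687, 5226, 4310, 3114 and 2759 in 66cl4 and 5333, 8925, 8154, 6060 and 8160 in 67NR cells. The closest libraries of the groups lay near each other but did not cross, and the log2 fold change was -0.92 (SE 0.195, edgeR adjusted p = 0.00607). On the level scale the means were 1.97, 1.99 and 1.92 times as high in 67NR cells for H2-Aa, H2-Ab1 and H2-Eb1.

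Cd74, the chaperone of both molecules, had 29006, 39762, 23992, 23343 and 23336 normalised counts in 66cl4 and 34227, 60337, 50696, 41981 and 62332 in 67NR CD45+ cells. Animal 4 of the 66cl4 group lay above animal 1 of the 67NR group, so the groups overlapped. The log2 fold change was -0.82 (SE 0.207, edgeR adjusted p = 0.0148). Without 66cl4 animals 5 and 6 it was -0.69 and did not pass the test (edgeR adjusted p = 0.0774). H2-DMb1, the beta chain of the peptide editor, had 1719, 1594, 1359, 1210 and 1102 in 66cl4 and 2065, 2782, 3082, 2482 and 2852 in 67NR cells. The groups did not overlap, with a log2 fold change of -0.91 (SE 0.147, edgeR adjusted p = 0.00131). Its partner H2-DMa had 2253, 2234, 1879, 1548 and 1542 in 66cl4 and 1845, 2429, 2539, 2514 and 3293 in 67NR cells. These groups overlapped, and the log2 fold change of -0.40 (SE 0.157, 95% interval -0.70 to -0.09) did not pass the test (edgeR adjusted p = 0.0917). H2-DMb1 has a near-identical neighbour, H2-DMb2, and the estimation may have divided reads between them.

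By the rule of the study, an adjusted p under 0.05 together with a log2 fold change beyond 1 in either direction, 11.8% of the 14676 genes tested were called between the CD45+ groups. Of the 9 members edgeR called 0, and DESeq2 called 1, H2-Ob, as higher in 66cl4 cells. The classical chains and H2-DMb1 lie at the fold threshold: 4 members, these 4, were called lower without 67NR animal 1, 3 without 66cl4 animal 3 (with H2-Ob called higher), 3 without 66cl4 animal 4, and 3 with total counts as library sizes. With an adjusted p under 0.05 alone, 5 of 9 members were lower in 66cl4 cells, against 11.3% of all genes tested, and 0 were higher. At an unadjusted p under 0.05, in either direction, the number of members was 7 of 9, against 5110 of the 14676 genes tested. The median log2 fold change was -0.82 over the members and 0.01 over all genes tested. Without overlap of the groups and lower in 66cl4 cells were 4 members, against 7.96% of all genes. When all 20 libraries shared 1 estimate of spread, H2-DMb1 alone of the 5 kept its adjusted p under 0.05, H2-Ob passed as higher (edgeR adjusted p = 0.00844), and H2-Aa, H2-Ab1, H2-Eb1 and Cd74 lost it at edgeR adjusted p of 0.0814 to 0.168. In bulk RNA of sorted cells, fewer cells that carry a gene and less RNA of it per cell cannot be told apart.

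Ciita and the inhibitors H2-Oa and H2-Ob divided the 66cl4 animals. Ciita had 442, 1049, 305, 525 and 535 normalised counts in 66cl4 and 624, 847, 769, 768 and 694 in 67NR CD45+ cells. The range within 66cl4 tumours was wider than that within 67NR tumours, with a coefficient of variation of 49.5% against 11.4%. The log2 fold change of -0.36 (SE 0.272, 95% interval -0.89 to 0.18) did not pass the test (edgeR adjusted p = 0.386). H2-Ob, the beta chain of the inhibitor, had 108, 1772, 92.6, 1034 and 621 in 66cl4 and 139, 97.8, 158, 316 and 96.7 in 67NR cells. Animals 4, 6 and 7 of the 66cl4 group lay above every 67NR library, and animals 3 and 5 lay within the 67NR range or below it. The log2 fold change was 2.19 (SE 0.776, edgeR adjusted p = 0.0686). H2-Oa, the alpha chain, had 41.7, 374, 39.5, 207 and 131 in 66cl4 and 40.6, 64.8, 67.1, 119 and 88.5 in 67NR cells. The same 3 animals were high, and the log2 fold change was 1.09 (SE 0.585, edgeR adjusted p = 0.215).

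These 3 animals were those in which the B cell list was high, and within 67NR tumours animal 6 had both the highest sum of that list and the highest H2-Oa and H2-Ob. All 7 B cell markers, among them Ms4a1, Cd79a and Pax5, had counts in each CD45+ library. The median log2 fold change of the list was 3.06, 3 of 7 genes had an unadjusted p under 0.05 0 passed edgeR's adjusted test and 2 passed in DESeq2. H2-Eb2, a further beta chain gene beside H2-Eb1, followed the same libraries with 8.35, 114, 5.79, 77.9 and 52.4 normalised counts in the 66cl4 group and between 7.8 and 21.6 in the 67NR group. H2-DMb2 did so too, with 794, 2114, 636, 1420 and 1169 in the former and between 613 and 1014 in the latter. The part of B cells in these levels was not tested.

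Leaving out the CD45+ libraries of 66cl4 animals 4, 6 and 7, a choice made after the data had been seen, turned the direction of both inhibitors. H2-Oa then had a log2 fold change of -0.89 (SE 0.397, edgeR adjusted p = 0.141) and H2-Ob of -0.68 (SE 0.481, edgeR adjusted p = 0.341). Ciita moved from -0.36 to -0.98 (SE 0.191) and passed the test (edgeR adjusted p = 0.0105). The 3 libraries left out held the highest 66cl4 CD45+ levels of H2-Oa, H2-Ob and Ciita. Their removal alone lowers these 3 genes, so the p-values of this fit do not test them. The classical chains stayed lower and past the test, with -1.01 for H2-Aa, -1.05 for H2-Ab1 and -0.87 for H2-Eb1. In that fit, 6 of 9 members had an adjusted p under 0.05, all lower in 66cl4 cells, from 2 animals against 5. Over all genes, 1578 of 15557 tested passed as lower. Leaving out animal 4 alone gave Ciita a log2 fold change of -0.70 (edgeR adjusted p = 0.0178). H2-Ob passed the test without 66cl4 animal 3 (edgeR adjusted p = 0.0371) or animal 5 (edgeR adjusted p = 0.0265), and H2-DMa without 67NR animal 1 (edgeR adjusted p = 0.0413). In their groups, animal 4 had the highest Ciita, animals 5 and 3 the lowest H2-Ob, and 67NR animal 1 the lowest H2-DMa. Each removal took out a library that ran against the change, so these p-values do not test the genes either.

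**Figure D2:**
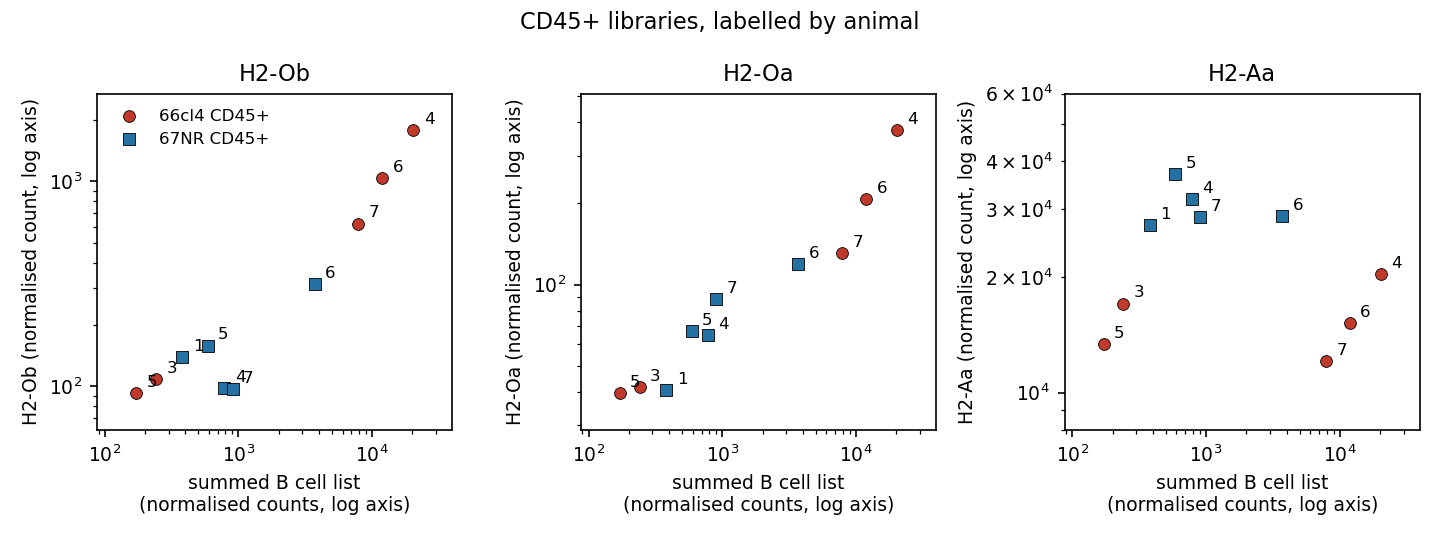
Normalised counts of H2-Ob, H2-Oa and H2-Aa in the 10 CD45+ libraries (vertical, log axis) against the summed B cell list (horizontal, log axis); the number beside a point is the animal. H2-Ob and H2-Oa are highest in 66cl4 animals 4, 6 and 7, where the sum is 7870 to 20265, whereas H2-Aa is lower in every 66cl4 library than in every 67NR library.

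**Figure D3:**
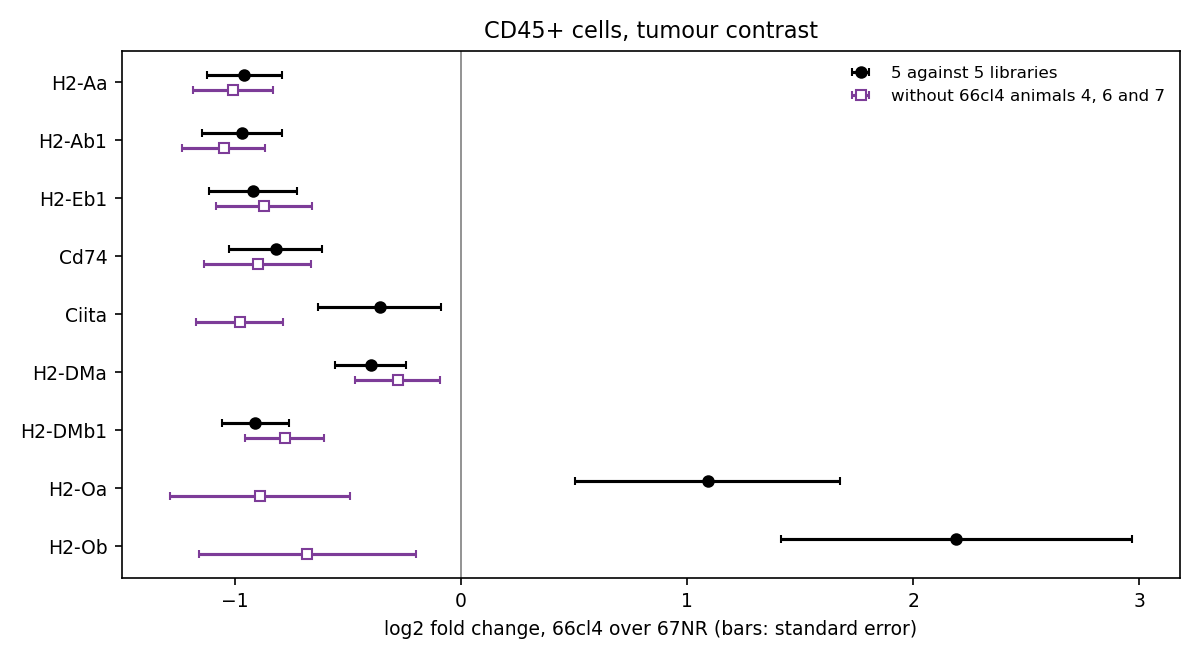
Log2 fold change of 66cl4 over 67NR in CD45+ cells for the 9 members, with the standard error as bar. Filled circles are the fit of 5 against 5 libraries. Open squares leave out 66cl4 animals 4, 6 and 7, which have the highest H2-Oa, H2-Ob and Ciita of their group. There H2-Oa and H2-Ob fall from 1.09 and 2.19 to -0.89 and -0.68 and Ciita from -0.36 to -0.98.

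Markers of other cells that carry class II also differed between the CD45+ groups, where 22.2% of all genes passed edgeR's adjusted p of 0.05 in either direction. The sum of the macrophage list was between 57382 and 91499 in 66cl4 and between 100664 and 154925 normalised counts in 67NR cells, with 5 of 10 genes lower and 1 higher. The list of conventional dendritic cells type 1 summed to 1623 to 2842 and 4250 to 5252, with 4 of 5 genes lower. The list of type 2 summed to 1475 to 1932 and 2358 to 3955, with 2 of 3 lower. None of these 3 sums overlapped between the groups. The genes common to dendritic cells (Flt3, Zbtb46 and Itgax) summed to 1166 to 2223 and 1235 to 2098, and 0 of 3 passed in edgeR or DESeq2, with 0 at an unadjusted p under 0.05. The list of mature dendritic cells went the other way, with 2 of 4 genes higher and a sum between 2613 and 4836 in 66cl4 against 1605 and 2738 in 67NR cells, and without 66cl4 animals 5 and 6 edgeR passed 0 of them, with 2 at an unadjusted p under 0.05. Of 3 plasmacytoid dendritic genes 2 were lower, with a sum between 1066 and 2316 in the former and between 2203 and 3698 in the latter. Neutrophil genes, which mark cells that carry little class II, summed to 44355 to 125374 in 66cl4 and 7225 to 52470 in 67NR cells, with 5 of 9 tested genes higher. Some genes of these lists were not particular to the CD45+ gate. The CD45- means of Tlr3 and Cadm1, of the type 1 list, were 165% and 394% of the CD45+ means in 66cl4 tumours. In 67NR tumours they were 39% and 139%. Fscn1 and Cacnb3, of the mature list, had 210% and 106% in 66cl4 and 185% and 114% in 67NR tumours. The sums of these 2 lists therefore do not follow dendritic cells alone. The part of cell composition in the lower class II level was not tested.

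Levels within a library were compared as ratios, since these do not depend on the scaling of the library. Relative to Ptprc, the classical chains and Cd74 together were 2.7, 3.51, 2.63, 2.28 and 2.35 times as high in 66cl4 and 4.52, 7.17, 4.99, 3.02 and 4.17 times as high in 67NR CD45+ cells. The ratio overlapped in 1 pair of animals, and the difference was -0.79 on the log2 scale (two-sided exact permutation p = 0.0159, adjusted over 9 ratios 0.0714). Relative to the dendritic genes Flt3, Zbtb46 and Itgax the difference was -0.97 without overlap (exact permutation p = 0.00794, adjusted 0.0714), where 0.00794 is the smallest p that 5 against 5 allows. Relative to the macrophage list the difference was -0.34 and the groups overlapped (exact permutation p = 0.31, adjusted 0.31). No ratio of the 9 passed an adjusted p of 0.05.

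Among the members themselves, Cd74 kept nearly the same ratio to the classical chains in both tumours, with a log2 difference of 0.15 (exact permutation p = 0.27, adjusted 0.304). The ratio of H2-DMa and H2-DMb1 together to the classical chains differed by 0.33 with overlapping groups (exact permutation p = 0.0317, adjusted 0.0952), while H2-DMb1 alone had a fold change close to that of the chains. H2-Ob relative to H2-DMb1 differed by 2.42 (exact permutation p = 0.0556, adjusted 0.125) and H2-Oa relative to H2-DMa by 1.04 (exact permutation p = 0.175, adjusted 0.224). Both ratios spread widely within 66cl4 tumours, with an SD of 2.01 and 1.48 on the log2 scale against 0.781 and 0.41 in 67NR tumours. Ciita relative to the classical chains differed by 0.50 (exact permutation p = 0.0873, adjusted 0.157).

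Along the class II region of chromosome 17, the genes lower in 66cl4 CD45+ cells were not only class II genes. H2-Ea, the alpha chain that pairs with H2-Eb1, is a pseudogene in the reference strain and a working gene in BALB/c. It had 15520, 20478, 13541, 19017 and 11208 normalised counts in 66cl4 and 28474, 35529, 40728, 29980 and 28709 in 67NR cells. Its log2 fold change was -1.02 (SE 0.188, edgeR adjusted p = 0.00283), close to that of the classical chains. BALB/c carries other class II alleles than the reference strain, and the effect of allele differences on the estimated counts was not tested. Of 6 neighbours in the region that serve other tasks, 2 passed the test, both lower, against 11.3% of all genes tested. With so few genes this count does not set the region apart. Psmb9, a subunit of the immunoproteasome, was lower by a log2 fold change of -0.85 (SE 0.172, edgeR adjusted p = 0.00489). Tap1, a peptide transporter of class I presentation, was lower by -0.66 (SE 0.174, edgeR adjusted p = 0.0176).

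**Figure D4:**
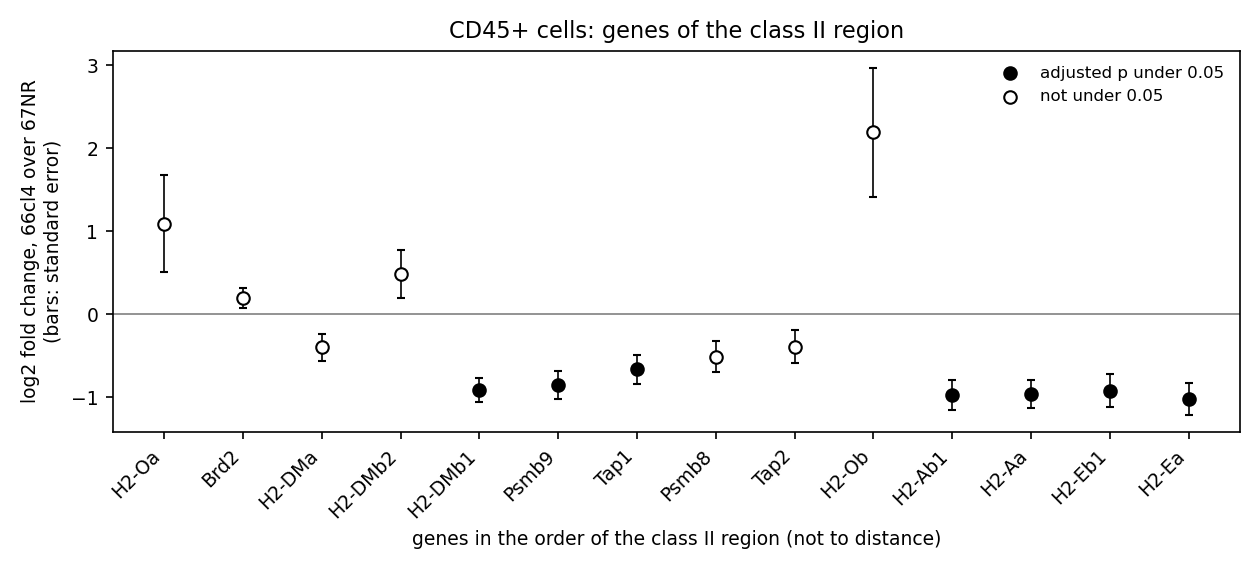
Log2 fold change of 66cl4 over 67NR in CD45+ cells, with its standard error, for the tested genes of the class II region in their order along chromosome 17 (horizontal axis not to distance). Filled points have an adjusted p under 0.05; they run from H2-DMb1 over Psmb9 and Tap1 to H2-Ab1, H2-Aa, H2-Eb1 and H2-Ea, at -0.66 to -1.02.

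The genes upstream and downstream of class II in the pathway did not share 1 direction. Of the 7 transcription factors on the paired boxes (Rfx5, Rfxap, Rfxank, Nfya, Nfyb, Nfyc and Creb1), 0 passed edgeR's adjusted test 0 had an unadjusted p under 0.05 and 0 passed in DESeq2 between the CD45+ groups. Of 12 genes that regulate Ciita, 8 had an unadjusted p under 0.05, against 5110 of the 14676 genes tested. By the adjusted p 3 passed, all lower in 66cl4 cells, a share near the 22.2% of all genes. Among them were Ifng, the inducer of Ciita, with a log2 fold change of -3.08 (SE 0.43, edgeR adjusted p = 0.000769), and the feedback inhibitor Socs1 with -0.81 (SE 0.211, edgeR adjusted p = 0.0172). NK cells and T cells are the known sources of interferon gamma. All 4 genes of the NK cell list were lower in 66cl4 cells, and of 8 T cell genes 0 passed in edgeR or DESeq2 and 0 had an unadjusted p under 0.05. The part of NK cells in the level of Ifng was not tested. Of 8 genes of lysosomal processing 2 were higher and 1 lower, against the same 22.2%: the protease Ctsl rose by 1.21 (SE 0.249, edgeR adjusted p = 0.00517), the thiol reductase Ifi30 by 0.50 (SE 0.136, edgeR adjusted p = 0.0208), and the protease Ctsh had -0.77 (SE 0.115, edgeR adjusted p = 0.000843). Of 3 genes of class II turnover 0 passed, with Marchf1, the ligase that removes class II from the surface, at -0.31 (SE 0.109, edgeR adjusted p = 0.0596) 1 of 3 at an unadjusted p under 0.05 and 1 past the test in DESeq2.

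Of 6 genes of co-stimulation and recognition, 3 were higher in 66cl4 CD45+ cells and 1 lower, where 22.2% of all genes passed in either direction. Cd80 and Cd86, the ligands of CD28 on T cells, rose by 2.19 (SE 0.278, edgeR adjusted p = 0.00041) and 0.83 (SE 0.219, edgeR adjusted p = 0.0185) on the log2 scale. Icosl, the ligand of ICOS, rose by 0.70 (SE 0.222, edgeR adjusted p = 0.0401). Lag3, a receptor on T and NK cells that binds class II, had -1.46 (SE 0.324, edgeR adjusted p = 0.00784). Without 66cl4 animals 5 and 6, 1 co-stimulation gene was higher and 0 lower by edgeR (4 at an unadjusted p under 0.05), and 1 regulator of Ciita was lower.

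Between the gates, all 9 members were higher in CD45+ than in CD45- cells in both tumours, against 23.9% of all genes tested in 66cl4 and 20.2% in 67NR tumours. For H2-Oa, H2-Ob and Ciita this call is no test. Their CD45- counts were too few for the comparison of tumours within that gate, so their CD45+ counts brought them into these fits. In fits with no filter all 9 were called higher too, against 5484 of 29644 genes in 66cl4 and 4285 of 29970 in 67NR tumours. In 66cl4 tumours H2-Aa had 27.9, 49.3, 74.9, 47.8 and 143 normalised counts in CD45- cells, with a log2 fold change of 7.80 (SE 0.432, edgeR adjusted p = 1.94e-08). In 67NR tumours it had 1021 in animal 4 and 170 to 258 in the 4 others, with a log2 fold change of 6.32 (SE 0.533, edgeR adjusted p = 1.29e-06). The low level in the CD45- gate ran close to that of Ptprc. In 66cl4 tumours the mean in CD45- cells was 0.439% of that in CD45+ cells for H2-Aa, 0.419% for H2-Ab1, 0.43% for H2-Eb1, 0.512% for Cd74, 0.426% for Ciita and 0.386% for Ptprc. In 67NR tumours it was 1.26% for H2-Aa, 1.39% for H2-Ab1, 1.74% for H2-Eb1, 1.61% for Cd74, 1.38% for Ciita and 1.22% for Ptprc. Across 45 marker genes of leukocytes in 66cl4 and 46 in 67NR tumours the median share was 0.65% and 2.46%.

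H2-DMa had a larger share of its CD45+ level in the CD45- gate than Ptprc in every animal. It had 70.3, 70.5, 50, 36.1 and 65.9 normalised counts in 66cl4 CD45- cells and 63.2, 134, 68.5, 93 and 84.9 in 67NR CD45- cells. These means were 3.1% and 3.51% of the CD45+ means, where Ptprc had 0.386% and 1.22%. Relative to Ptprc, H2-DMa was 12.2 times as high in CD45- as in CD45+ cells of 66cl4 tumours and 3.05 times as high in those of 67NR tumours. The ratios of the gates did not overlap in either tumour, and each test gave the smallest p of the design (exact permutation p = 0.00794, adjusted over 18 ratios 0.0714). H2-DMb1 had 13.3, 34.3, 9.16, 20.2 and 24 in 66cl4 and 42.1, 107, 66.7, 40.6 and 32.7 in 67NR CD45- cells, or 1.44% and 2.18% of the CD45+ means. Its ratios to Ptprc overlapped between the gates in both tumours (exact permutation p = 0.0317, adjusted 0.0952 in each). In 67NR tumours the leukocyte median of 2.46% lay between the shares of H2-DMb1 and H2-DMa, and the macrophage genes ranged from 1.94% to 4.58%. H2-Oa also had a larger share than Ptprc in every 66cl4 animal, from at most 8 counts in a CD45- library. Relative to Ptprc it was 16.3 times as high in CD45- cells there (exact permutation p = 0.0159, adjusted 0.0714). The ratio of H2-Aa to Ptprc differed between the gates by -0.62 in 66cl4 and 0.20 in 67NR tumours on the log2 scale, within the spread of the animals (exact permutation p = 0.183 and 0.595, adjusted 0.299 and 0.824). A test that flips the sign of each animal's difference cannot go below 0.0625 with 5 animals.

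The inhibitors were close to the limit of detection in the CD45- gate. H2-Ob had 0 or 1 count in each 66cl4 CD45- library, so that its mean in CD45+ cells was at least 250-fold higher, taking 3 counts per library as the floor. That mean rests on animals 4, 6 and 7: the bound was 160-fold without animal 4 and 34.6-fold without all 3. In 67NR CD45- cells it had 1 to 8 counts. H2-Oa had 1 to 8 counts in 66cl4 CD45- libraries and 0 to 3 in 67NR CD45- libraries, where its CD45+ mean was at least 29.4-fold higher. Floors of this kind cover counting error only.

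**Figure D5:**
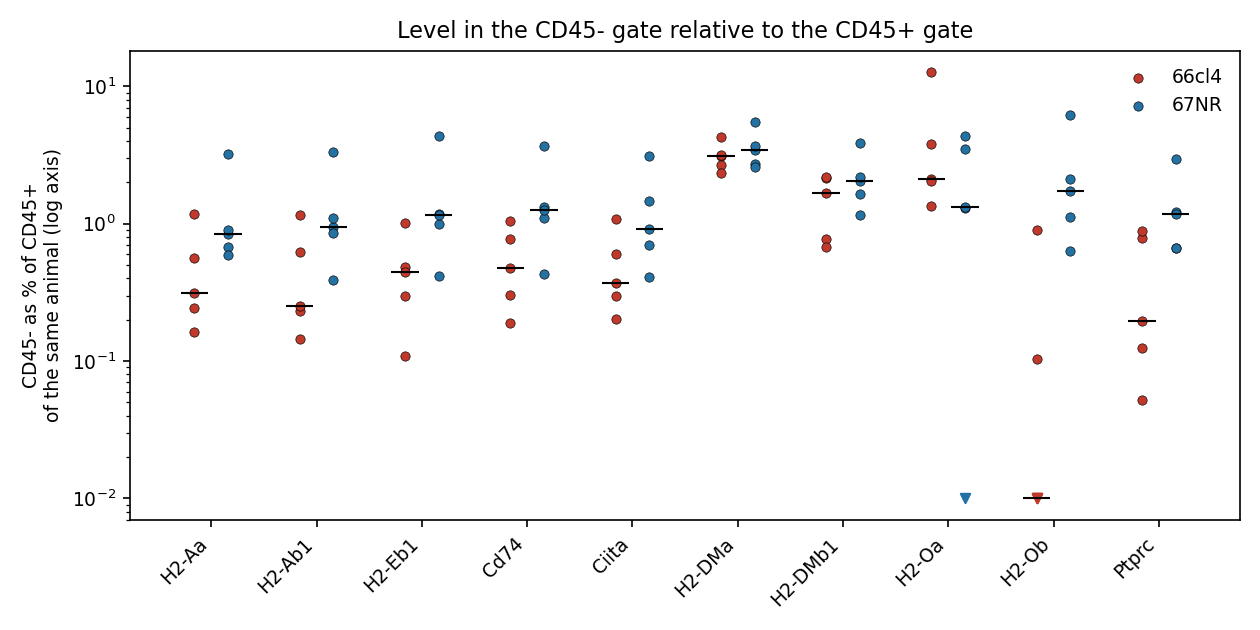
Level in CD45- cells as a percentage of the level in CD45+ cells of the same animal (log axis) for the 9 members and Ptprc; a point is 1 animal, the bar the median of 5, and triangles at the lower edge are values of 0. H2-DMa lies at 3.1% and 3.51% of the CD45+ mean, above Ptprc at 0.386% and 1.22%, while the classical chains lie near Ptprc.

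In CD45- cells the classical chains were again lower in 66cl4 than in 67NR tumours, at a level of 1.74% of CD45+ cells or less. Of the 6 members that passed the filter on low counts, 5 were called lower, against 18.9% of the 14844 genes tested, and H2-Oa, H2-Ob and Ciita did not pass the filter. The log2 fold change was -2.45 for H2-Aa (SE 0.621, edgeR adjusted p = 0.00612), -2.69 for H2-Ab1 (SE 0.685, edgeR adjusted p = 0.00558) and -2.88 for H2-Eb1 (SE 0.726, edgeR adjusted p = 0.00514). Cd74 had -2.45 (SE 0.647, edgeR adjusted p = 0.00818) and H2-DMb1 -1.46 (SE 0.39, edgeR adjusted p = 0.00454). H2-DMa had -0.56 (SE 0.239, edgeR adjusted p = 0.0496). Ptprc itself had -1.79 (SE 0.658, edgeR adjusted p = 0.0361), and 4 of 8 tested macrophage genes and 2 of 2 tested dendritic genes were lower too. In the CD45- gate the sum of the macrophage list was between 202 and 2330 in 66cl4 and between 1614 and 5867 normalised counts in 67NR tumours. The part of CD45+ cells left in this gate was not tested.

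The 67NR CD45- library of animal 4 carried the highest levels of that gate, with 1021 normalised counts of H2-Aa, 2212 of Cd74 and 473 of Ptprc, and the highest macrophage sum, 5867. Without it H2-Aa differed between the tumours by -1.70 and Cd74 by -1.62. In that fit 5 members were still called lower, against 2787 of the 14983 genes tested. An interaction term over 20 libraries asked whether the tumour effect was the same in both gates, and in that fit 43.1% of the 16453 genes tested passed an adjusted p of 0.05. Of the members 5 passed, namely H2-Aa at 1.50 (SE 0.59, edgeR adjusted p = 0.0464), H2-Ab1 at 1.73, H2-Eb1 at 1.97, Cd74 at 1.64 and H2-Ob at 5.02, the last from counts at the floor. Ptprc passed with a value of the same size, 1.65 (SE 0.643, edgeR adjusted p = 0.045). With the animal as a block, since both gates come from the same mouse, 1 of 9 members passed, H2-Ob, and H2-Aa had 1.28 (edgeR adjusted p = 0.0843). Without the 67NR CD45- library of animal 4 the number was 0, and H2-Aa had 0.64. Single removals gave 0 for 4 other libraries too, namely the CD45+ library of 67NR animal 1 and the CD45- libraries of 66cl4 animals 3, 4 and 6, and all 20 removals gave 0 to 5.

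Across the 20 libraries, the profile of the classical chains was most like that of Cd74, by the root mean square difference of centred log2 levels (0.2). Next came H2-Ea (0.239), and the 10 genes that are no members and lay closest were H2-Ea, Rnase6, Gpr65, Plbd1, Clec4a1, Fgl2, Cd300c2, Mpeg1, Slamf7 and Cd209a, with 0.239 to 0.554. Mpeg1 encodes the pore protein perforin-2 of macrophages, and Cd209a a lectin of dendritic cells. Their profiles are set mostly by the contrast of the gates, which they share. Rnase6 had mean levels of 1044 and 1734 normalised counts in 66cl4 and 67NR CD45+ cells, and Fgl2 of 3822 and 8819. Of 10623 genes ranked, the other members stood below these: Ciita at 90 (0.78), H2-DMb1 at 214 (0.948), H2-Ob at 553 (1.46) and H2-DMa at 571 (1.48), with Ptprc at 34 (0.647). H2-Oa fell below the minimum mean of 100 normalised counts set for the ranking.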

How the data were processed

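RNA of 20 sorted libraries had been made into SENSE mRNA-Seq V2 libraries and sequenced. Per the labels and the methods of the study, the authors trimmed reads with fastp, quantified them with Salmon 1.3.0 and summed transcripts to genes with tximport. The deposited values are estimated counts per gene, not normalised, for 52783 genes. The reference is named as GRCh38, a human build, although the gene IDs are mouse, so the mouse annotation is not given in the sources used here. Before the fits these estimates were rounded, which moved a value by 0.5 at most. Totals of 12960000 to 28080314 counts put the floor of 3 counts at 1.07e-05% to 2.31e-05% of a library, for counting error only. Groups followed the titles of the libraries. TPM was computed from the mean transcript length of each gene in the mouse GENCODE annotation given for reference, leaving out the 1291 genes without a length.

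Each comparison was fitted by edgeR 4.0.16 (TMM scaling, filter on low counts with a minimum of 10, robust quasi-likelihood test) on the 10 libraries it concerns, and the difference between gates on all 20. Benjamini-Hochberg adjusted p-values run over all genes tested. A gene was called at an adjusted p under 0.05 and a log2 fold change beyond 1, for the interaction at the adjusted p alone. Standard errors follow from the fold change and its F statistic, and 95% intervals from these. Normalised counts use size factors of DESeq2 1.42.0, which also served as alternative test. Ratios of genes within a library, with a pseudocount of 1, were compared by two-sided exact permutation over all regroupings. The fits were tested on simulated data. The members, gene lists and tests were chosen with earlier results of these data known. Named are all members, the 10 other genes of nearest profile and up to 4 genes of a pathway list, those with the lowest adjusted p first, or, between the gates, genes picked after their values were seen. Both gates came from the same animal, which pairs them by design. Correlations of the deviations within an animal were mostly near 0, between 0.0258 and 0.147 for 66cl4 and between -0.00283 and 0.325 for 67NR.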

Additional observations from a re-analysis of the deposited data

Results flagged for a closer look

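In 8 of 54 groups of 5 libraries, 1 library lay farther from the rest than Dixon's 95% limit of 0.71. Chance gives about 1 in 20 for independent groups. The groups here share libraries and genes, so that rate is no measure for these 8. The 67NR CD45- library of animal 4 gave 4 of them: H2-Aa had 1021 normalised counts there against 170 to 258 in the other animals, H2-Ab1 430 against 46 to 104, H2-Eb1 389 against 33.7 to 80.8, and Cd74 2212 against 267 to 558. Ptprc, at 473, and the macrophage sum, at 5867, were highest in the same library. The 67NR CD45+ library of animal 6 gave 3: H2-Ob had 316 normalised counts against 96.7 to 158, the log2 ratio of H2-Oa to H2-DMa was -4.39 against -5.47 to -5.20, and the log2 ratio of the classical chains and Cd74 to the B cell list was 4.53 against 6.94 to 7.64. H2-Oa was low in the 66cl4 CD45- library of animal 5, with 0.833 normalised counts against 4.25 to 5.31, which is 1 count.

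The tumour effect differed between the gates for 5 members by the interaction test of edgeR, with log2 values of 1.50 for H2-Aa, 1.73 for H2-Ab1, 1.97 for H2-Eb1, 1.64 for Cd74 and 5.02 for H2-Ob, against 1.65 for Ptprc. Of all genes tested 43.1% passed the same test. With the animal as a block 1 member passed, 0 passed without a filter on low counts, and 0 on leaving out any of 5 single libraries.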

How the results depend on the processing

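The 9 members were called higher in CD45+ cells in both tumours under every alternative, and the animal as a replicate block changed no call of the gate comparisons. In CD45+ cells the classical chains, Cd74 and H2-DMb1 stayed lower in 66cl4 tumours under all alternatives, but their fold changes lie at the threshold. The number called, 0, became 1 with DESeq2, 3 with total counts as library sizes, 4 with a replicate block, 1 with all 20 libraries in one fit, 2 without 66cl4 CD45+ animals 4, 6 and 7 (chosen after seeing the data), and 0 to 4 on leaving out 1 library. All 20 libraries in one fit left 2 members with an adjusted p under 0.05. Between tumours only the number is shared (4 pairs), with correlations of deviations of 0.00562 to 0.079 in CD45+ and -0.146 to 0.00631 in CD45- cells. The block on that number gave 2 called members in CD45- cells and 3 with an adjusted p under 0.05, all lower. Over all 14844 genes tested, 2748 were called lower there and 4747 had an adjusted p under 0.05 as lower. The interaction, 5 members, fell to 2 with total counts, 0 without a filter, 2 with at least 10 counts in 5 libraries, 1 with the replicate block, 1 without 66cl4 animals 5 and 6, and 0 to 5 on leaving out 1 library. Without animals 4, 6 and 7 none of the 5 passed, and 1 other member did, H2-Oa, in the opposite direction.

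Without animals 4, 6 and 7 the direction turned for H2-Oa (-0.89) and H2-Ob (-0.68), for the ratio of the classical chains and Cd74 to the B cell list (1.20), of H2-Oa to H2-DMa (-0.53) and of Ciita to the classical chains (-0.01). With a pseudocount of 0.5 the ratio to Ptprc between gates turned for H2-Ob in 66cl4 (0.42) and Ciita in 67NR tumours (0.03). Leaving out 1 library gave ranges that cross 0 for H2-DMa in the interaction (-0.12 to 0.28) and for ratios to Ptprc of H2-Ob in 66cl4 (-0.85 to 0.18) and of H2-Ab1 (-0.07 to 0.38), H2-Eb1 (-0.31 to 0.21), Cd74 (-0.30 to 0.11) and Ciita (-0.46 to 0.12) in 67NR tumours. The cause was not tested. Over all genes, the calls between CD45+ groups ranged from 1296 without 66cl4 animals 5 and 6 to 2560 with DESeq2. Counts of H2-Oa and H2-Ob in CD45- cells are too few to rank the tumours.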

Other observations

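Other genes of the pathway did not all share the direction of the members between the gates. Of the 7 transcription factors on the paired boxes, 4 passed edgeR's adjusted p of 0.05 as higher in CD45+ cells of 66cl4 tumours and 2 as lower. In 67NR tumours 2 passed as higher and 0 as lower. Over all genes, 10892 of 14916 and 10143 of 15063 passed in either direction. Nfya, a subunit of NF-Y, was higher like the members, with log2 fold changes of 0.55 and 0.53, against 7.73 and 6.14 for Ciita. Of 8 lysosomal genes 7 were called higher in CD45+ cells of both tumours, against 23.9% of all genes tested in 66cl4 and 20.2% in 67NR tumours. The protease Ctss, which cleaves the invariant chain, had log2 fold changes of 7.14 in 66cl4 and 5.95 in 67NR tumours, and Ctsh 6.83 and 4.31. Ctsl was lower in CD45+ cells of both tumours, with -0.64 (edgeR adjusted p = 0.00205) and -0.64 (edgeR adjusted p = 0.0249). The ligases that take class II off the surface also parted, with Marchf1 at 7.50 and 5.77 and Marchf8 at -0.63 and -0.35. Of the neighbours in the region, Psmb8 had 2.25 and 4.76, Psmb9 2.33 and 3.87, and Tap1 2.96 and 2.88.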
